A study of Mus musculus with 17 samples.

Results

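The miR-106b-25 cluster gives rise to 6 mature microRNAs (miRNAs), both arms of the hairpins of miR-106b, miR-93 and miR-25. Its members were chosen by name from the miRNA table of a small RNA sequencing study of mouse embryonic stem cells (ESCs), and all 6 had a row among 1033 miRNAs. The study followed the ESC lines D3 and B8 as they differentiated. D3 was analysed at day 0 (3 libraries), day 7 (2 libraries, replicates 2 and 3) and day 21 (3 libraries), and B8 at day 7 and day 0 (3 libraries each), so 14 libraries in 5 groups were used. Undifferentiated ESCs, grown feeder-free with the self-renewal cytokine LIF, gave the day 0 libraries of both lines. For day 7, cells were aggregated by the hanging drop method into embryoid bodies, and the day 21 libraries came from embryoid body outgrowths. LIF was withdrawn for both later days, and the medium held the supplements that the labels call RA, ITS and N2. Whether replicates came from separate cultures is not in the labels, so the p-values cover no more than the variation among these samples, which can be technical. Each line is a single cell line, so a difference between D3 and B8 is one between these cultures.

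miRNAs guide Argonaute proteins to messenger RNAs, mostly through the seed, the bases near the 5′ end of the mature strand. The cluster is a paralogue of the miR-17-92 and miR-106a-363 clusters, lies in an intron of the replication gene Mcm7, and is known in proliferating cells for limiting the cell cycle inhibitor p21 and the apoptosis gene Bim. miR-106b and miR-93 are also known to be raised early in the reprogramming of mouse fibroblasts to pluripotent cells, where they promote it.

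In the GRCm38 annotation the 3 hairpins lie on chromosome 5, minus strand, within 498 bases: Mir106b at chr5:138165737-138165818, Mir93 at chr5:138165523-138165610 and Mir25 at chr5:138165321-138165404. All 3 fall in intron 13 of the principal Mcm7 transcript, which has 15 exons and the same strand, and Mir93 and Mir25 also overlap exon 1 of an Mcm7 transcript with a retained intron. Gaps of 126 and 118 bases separate neighbouring hairpins.

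The mature sequences, from RefSeq for GRCm38.p6, are shown because the results turn on which members share a seed with miRNAs of other loci. Capitals mark the seed, bases 2 to 8 from the 5′ end.
mmu-miR-106b-5p: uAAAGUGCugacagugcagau
mmu-miR-93-5p: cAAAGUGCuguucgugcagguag
mmu-miR-25-3p: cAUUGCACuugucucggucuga
mmu-miR-106b-3p: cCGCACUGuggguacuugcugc
mmu-miR-93-3p: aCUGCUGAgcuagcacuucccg
mmu-miR-25-5p: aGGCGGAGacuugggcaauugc
The first pair shares the seed of miR-17-5p with 4 miRNAs of the paralogous clusters, miR-17-5p and miR-20a-5p on chromosome 14 and miR-20b-5p and miR-106a-5p on chromosome X.
mmu-miR-17-5p: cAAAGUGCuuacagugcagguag
mmu-miR-20a-5p: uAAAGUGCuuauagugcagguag
mmu-miR-20b-5p: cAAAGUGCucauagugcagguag
mmu-miR-106a-5p: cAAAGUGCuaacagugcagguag
miR-25-3p shares its seed with 5 others, of which miR-92a-3p, made from both paralogous clusters, and miR-92b-3p, from chromosome 3, were the most abundant.
mmu-miR-92a-3p: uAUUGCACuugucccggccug
mmu-miR-92b-3p: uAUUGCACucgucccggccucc
miR-106b-5p differs from miR-17-5p, miR-20a-5p and miR-106a-5p at 3 of 21 positions each, and miR-25-3p from miR-92a-3p at 3 of 21. How reads that match several miRNAs were counted is not stated, so values of these near-identical miRNAs are uncertain one by one. No other row of the table shares a seed with miR-106b-3p, miR-93-3p or miR-25-5p, among the 873 rows matched to a mature sequence.

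Recovered miRNA reads per library ran from 56377 to 129486 in D3 day 0, 1008438 to 1060306 in D3 day 7, 547213 to 743039 in D3 day 21, 141823 to 256613 in B8 day 7 and 138397 to 275271 in B8 day 0. The deposited column totals differed up to 17.7-fold between libraries. Each library was therefore divided by a median-of-ratios factor over the 319 miRNAs above 0 in all libraries, which left totals that differed 2.87-fold, and values below are this median-scaled signal unless stated. The 7 pluripotency miRNAs of the miR-290 and miR-302 clusters used as markers took 12.7% to 15.2% of the signal in D3 day 0, 0.406% to 0.425% in D3 day 7, 0.735% to 0.759% in D3 day 21, 1.96% to 5.07% in B8 day 7 and 15.8% to 17.2% in B8 day 0. These 7 did not all move alike. At day 21 against day 0 in D3, limma called 2 higher and 5 lower, on the median scale and as deposited. Of all tested miRNAs 63.0% and 75.4% were called there. At day 7 against day 0 on the median scale, 0 were higher and 6 lower in each line (63.0% of all called in D3, 52.6% in B8). As deposited, 1 was higher and 4 lower in D3 (77.4%). The 3 neural markers took 0.00906% to 0.0337% in D3 day 0, 1.31% to 1.37% in D3 day 7, 0.625% to 0.753% in D3 day 21, 1.10% to 1.204% in B8 day 7 and 0.0214% to 0.0260% in B8 day 0. Mesenchyme markers (miR-143, miR-145a, miR-199a and miR-214) took 0.182% to 0.231% in D3 day 0, 0.671% to 0.893% in D3 day 7, 3.85% to 4.92% in D3 day 21, 0.331% to 0.891% in B8 day 7 and 1.31% to 1.51% in B8 day 0, with no overlap between the ESC libraries of the lines. These 4 did not move together in B8. miR-143-3p averaged 386 in B8 day 7 against 1631 in B8 day 0, and miR-145a-5p 4.31 against 14.1. miR-214-3p was higher at day 7 (142 against 23.2, limma adjusted p = 3.8e-07), and miR-199a-3p overlapped (554 against 341). Muscle markers took 0.122% to 0.339% in D3 day 21 and at most 0.00429% elsewhere. Endoderm and blood or endothelial markers stayed at or below 0.298% and 0.0803%. The erythroid miR-451a was listed at 0 in all groups but D3 day 21, where it had 1 to 2 reads. The part of these marker shifts in the results below was not tested, and in bulk RNA fewer cells of a type and less RNA per cell cannot be told apart.

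mmu-miR-25-3p and mmu-miR-93-5p made up nearly all of the cluster's signal in every library. miR-25-3p, the guide strand of miR-25, took a median of 61.8% of the summed signal of the 6 members, with a range of 51.2% to 66.2% over the libraries. miR-93-5p, the guide strand of miR-93, took a median of 32.8%, with a range of 27.8% to 43.2%. miR-106b-5p and miR-106b-3p took medians of 2.70% and 2.47%, miR-25-5p 0.333% and miR-93-3p 0.0419%. These shares carry no correction for length, which lies between 21 and 23 bases for the 6 members, or for ligation bias.

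As a share of all miRNA signal, which does not depend on the scaling, the cluster took 2.59% ± 0.265 in D3 day 0 (SD, n = 3), 1.30% ± 0.170 in D3 day 7 (n = 2), 1.72% ± 0.107 in D3 day 21 (n = 3), 2.85% ± 0.543 in B8 day 7 (n = 3) and 3.69% ± 0.137 in B8 day 0 (n = 3). The differentiated libraries lay below the ESC libraries of their own line without overlap. The summed median-scaled signal gave another order, 3200 ± 299 in D3 day 0, 4270 ± 150 in D3 day 7, 2735 ± 293 in D3 day 21, 5779 ± 593 in B8 day 7 and 5196 ± 300 in B8 day 0. The scaled sum was above day 0 at day 7 in each line, with overlapping libraries in B8, where the share was below it. Directions between days therefore depend on the scaling. Differences below are on the median scale, and 3 others were used beside it: values as deposited, equal column totals, and totals made equal after setting aside miR-10a and miR-10b. For each call of a member, a scale on which its direction turned is named. Turns of differences that were not called are listed in the closing section on the processing, apart from those of miR-93-3p.

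**Figure D1:**
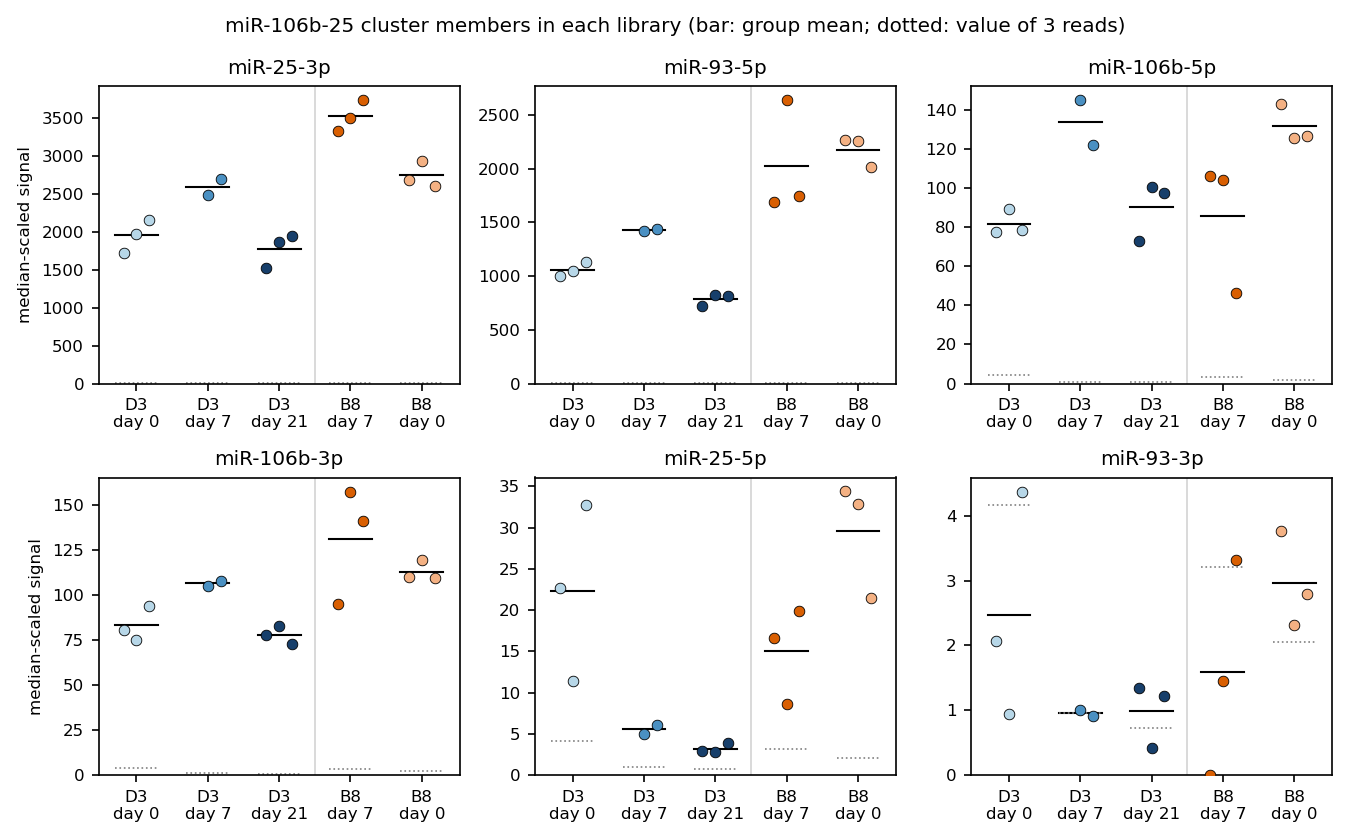
Median-scaled signal (linear axis) of each member in every library, by group; points are libraries, bars group means and dotted lines the mean value of 3 reads in the group. miR-25-3p and miR-93-5p lie between 722 and 3736, miR-93-3p lies near the value of 3 reads, and replicate 3 of B8 day 7 lies apart for miR-106b-5p.

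At day 7 against day 0 in B8, miR-25-3p was higher (with a negative difference on equal column totals), miR-106b-5p and miR-25-5p were lower, and the other 3 members did not pass the test. Of all 521 tested miRNAs 52.6% passed, 26.9% higher and 25.7% lower, so 3 of 6 is near the background. Libraries of the groups did not overlap for 3 of 6 members, against 55.5% of all tested miRNAs. miR-25-3p had 3325, 3503 and 3736 in B8 day 7 and 2681, 2940 and 2609 in B8 day 0. All 3 day 7 libraries were above all day 0 libraries, a log2 difference of 0.36 ± 0.14 (SE; limma adjusted p = 0.040). As deposited this difference was 0.13, and with equal column totals it was −0.18, so its direction rested on the scaling.

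miR-106b-5p, the arm of miR-106b with the miR-17 seed, had 106.4, 104 and 46.4 in B8 day 7 against 143, 126 and 127 in B8 day 0. The day 7 libraries were all lower, with replicate 3, which had 28 reads, far below the other two. The log2 difference was −0.71 ± 0.26 (SE; limma adjusted p = 0.030). It was negative on each of the 4 scales, but did not pass on the scale without the miR-10 pair (−0.43). Without replicate 3 of day 7 it was −0.29 and did not pass either (limma adjusted p = 0.19, with a range of 0.012 to 0.19 when each library in turn was left out).

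miR-25-5p, the minor arm of miR-25, had 16.6, 8.66 and 19.9 in B8 day 7 against 34.4, 32.9 and 21.4 in B8 day 0, on 12 to 20 and 23 to 64 reads. The groups did not overlap and the log2 difference was −1.01 ± 0.40 (SE; limma adjusted p = 0.045), negative on all 4 scales but not called on the scale without the miR-10 pair (−0.73). miR-93-5p had 1690, 2636 and 1749 in B8 day 7 and 2261, 2256 and 2011 in B8 day 0, and overlapped (log2 difference −0.13, limma adjusted p = 0.51). miR-106b-3p averaged 131 ± 32.4 in B8 day 7 and 113 ± 5.83 in B8 day 0 (SD, n = 3 each), and also overlapped. Without replicate 2 of day 7, miR-93-5p was called at −0.36. Each of the 3 calls was lost without some single libraries. For miR-25-3p these were replicates 2 and 3 of B8 day 7, each of B8 day 0 and replicates 2 and 3 of D3 day 0 (7 of 14 fits, log2 difference 0.31 to 0.40). For miR-106b-5p they were replicate 3 of B8 day 7 and each of B8 day 0 (4 of 14, −0.76 to −0.29). For miR-25-5p they were replicates 1 and 2 of B8 day 7 and of B8 day 0 and each of D3 day 7 and D3 day 21 (9 of 14, −1.12 to −0.68). All 3 calls also ended without the filter on low values and with a limma prior without trend, and that of miR-25-3p ended with edgeR on recovered reads (0.35, adjusted p = 0.097).

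At day 7 against day 0 in D3, miR-25-3p, miR-93-5p and miR-106b-5p were higher and miR-25-5p was lower on the median scale. However, the first 3 had negative differences with equal column totals, miR-25-5p had a positive one as deposited, and edgeR called only miR-25-5p. These 4 of 6 stand against 63.0% of all tested miRNAs, 36.1% higher and 26.9% lower. Libraries did not overlap for 5 of 6 members, against 72.6%. Besides the 4 called members this held for miR-106b-3p, with 105 and 108 in D3 day 7 against 80.6, 74.8 and 94.0 in D3 day 0. Its log2 difference of 0.36 did not pass (limma adjusted p = 0.16), and was −1.045 with equal column totals. miR-25-3p had 2490 and 2703 in D3 day 7 against 1721, 1977 and 2162 in D3 day 0, a log2 difference of 0.42 ± 0.16 (SE; limma adjusted p = 0.029). miR-93-5p had 1418 and 1437 in D3 day 7 against 997, 1047 and 1128 in D3 day 0, a difference of 0.43 ± 0.18 (adjusted p = 0.046). miR-106b-5p had 145 and 122 in D3 day 7 against 77.5, 89.1 and 78.7 in D3 day 0, a difference of 0.70 ± 0.29 (adjusted p = 0.045). For each of these 3 the day 7 libraries lay above all day 0 libraries.

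These 3 differences rested on the scaling and on the test. edgeR's quasi-likelihood test on recovered reads gave 0.23, 0.25 and 0.50 (adjusted p = 0.32, 0.31 and 0.10), and a limma prior without trend left adjusted p-values of 0.091, 0.12 and 0.089, so none of the 3 passed under either. As deposited they were 2.72, 2.73 and 2.99, beside a median of 2.25 over all tested miRNAs, whereas with equal column totals they were −0.996, −0.98 and −0.70. On the median scale the median of all tested miRNAs was 0.27. When each library in turn was left out, miR-25-3p lost its call without replicate 1 or 2 of D3 day 0, either D3 day 7 library or replicate 2 of D3 day 21 (5 of 14 fits, 0.32 to 0.45). miR-93-5p and miR-106b-5p lost theirs without any one library outside B8 day 7 (11 of 14 each, 0.39 to 0.44 and 0.56 to 0.83).

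miR-25-5p went the other way. It had 4.99 and 6.11 in D3 day 7 against 22.7, 11.4 and 32.8 in D3 day 0, on 15 and 20 reads at day 7 and 12 to 22 at day 0. The log2 difference was −1.82 ± 0.45 (SE; limma adjusted p = 0.0020), and the call was kept whichever library was left out. As deposited the difference was 0.40, against the median of 2.25 named above, and with equal column totals it was −3.15.

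At day 21 against day 0 in D3, miR-93-5p (higher as deposited) and miR-25-5p were lower. These 2 of 6 stand against 63.0% of all tested miRNAs, 38.0% higher and 25% lower, and libraries did not overlap for the same 2 members, against 68.7%. miR-93-5p had 722, 827 and 815 in D3 day 21 and 997, 1047 and 1128 in D3 day 0, all lower, with a log2 difference of −0.42 ± 0.16 (SE; limma adjusted p = 0.030). miR-25-5p had 2.95, 2.74 and 3.90 in D3 day 21 and 22.7, 11.4 and 32.8 in D3 day 0, with a difference of −2.56 ± 0.40 (adjusted p = 3.0e-05). The second was negative on all 4 scales, whereas miR-93-5p was at 1.14 as deposited, where all tested miRNAs had a median of 1.69. The other 4 members overlapped between the groups. miR-93-5p lost its call without replicate 3 of day 0 (−0.44) or replicate 1 of day 21 (−0.36), without the filter (adjusted p = 0.051), with a prior without trend (0.085) and with edgeR (−0.40, adjusted p = 0.061). This comparison and that of D3 day 7 with day 0 share the 3 day 0 libraries.

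At day 21 against day 7 in D3, miR-93-5p and miR-25-3p were lower on the median scale, and their differences were positive with equal column totals. These 2 of 6 stand against 26.5% of all tested miRNAs, 16.1% higher and 10.4% lower, and libraries did not overlap for 5 of 6 members, against 64.3%. miR-93-5p fell to 722, 827 and 815 in D3 day 21, against 1418 and 1437 in D3 day 7, a log2 difference of −0.86 ± 0.18 (SE; limma adjusted p = 0.0021), and kept its call whichever library was left out. miR-25-3p had 1521, 1864 and 1938 in D3 day 21 against 2490 and 2703 in D3 day 7, a difference of −0.56 ± 0.16 (adjusted p = 0.015). Every day 21 library was also lower for miR-106b-5p, miR-106b-3p and miR-25-5p (−0.57, −0.45 and −0.74), which did not pass. Without replicate 3 of B8 day 7, which shares the estimate of spread, miR-106b-5p was called at −0.61. The directions of all 5 turned with equal column totals, where they lay between 0.20 and 0.60. miR-25-3p lost its call without replicate 2 (−0.62) or 3 (−0.52) of day 7 or replicate 1 of day 21 (−0.42), with a prior without trend (adjusted p = 0.064) and with edgeR (−0.34, adjusted p = 0.17).

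**Figure D2:**
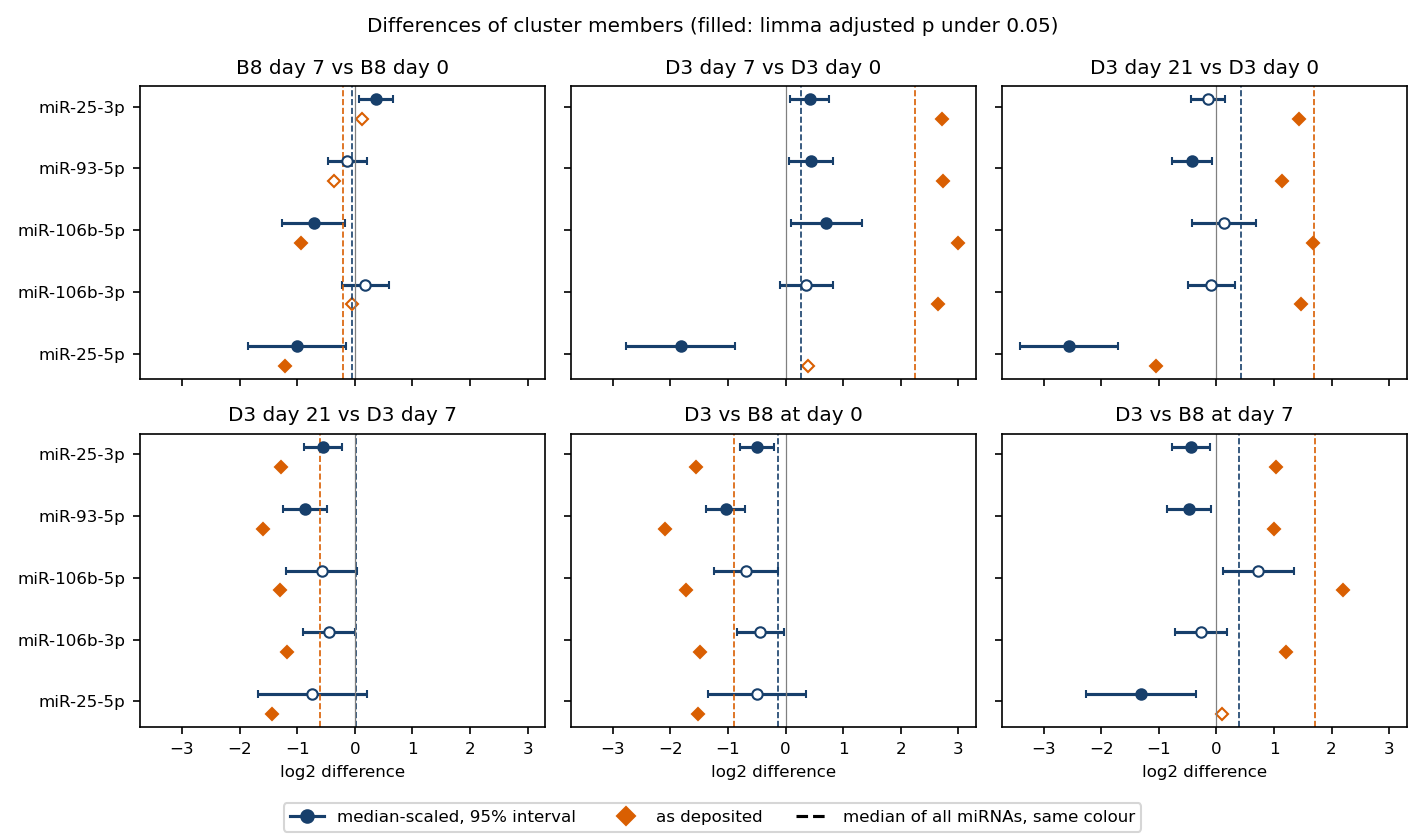
Log2 differences of 5 members in 6 comparisons (first-named group minus second), as limma estimates with 95% intervals on the median scale (circles) and as deposited (diamonds); dashed lines mark the median of all tested miRNAs on each scale. In D3 day 7 against day 0 the dashed line lies at 2.25 as deposited and at 0.27 on the median scale, and the deposited values lie higher with it, while miR-25-5p lies below the line of its own scale in every panel.

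As deposited, limma called 2 of 6 members in B8 at day 7 against day 0, both lower, where 49.9% of all tested miRNAs were called. In D3 it called 4 at day 7 against day 0, all higher (77.4% of all called), 5 at day 21 against day 0, 4 of them higher (75.4%), and 5 at day 21 against day 7, all lower (39.5%). Between D3 and B8 it called 5 at day 0, all lower (47.0%), 4 at day 7, all higher (75.2%), and 6 in the interaction, all higher (74.3%).

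In undifferentiated cells miR-93-5p and miR-25-3p were lower in D3 than in B8. These 2 of 6 stand against 23.4% of all tested miRNAs, 7.68% higher and 15.7% lower, and libraries did not overlap for 4 of 6 members, against 37.8%. The fitted differences of the 5 members apart from miR-93-3p were negative on each of the 4 scales. miR-93-5p had 997, 1047 and 1128 in D3 day 0 and 2261, 2256 and 2011 in B8 day 0, 2.06-fold lower (log2 difference −1.04 ± 0.16, SE; limma adjusted p = 9.99e-05). It was called on all 4 scales, with differences of −0.86 to −2.10, and whichever library was left out. miR-25-3p had 1721, 1977 and 2162 in D3 day 0 and 2681, 2940 and 2609 in B8 day 0, all lower (−0.49 ± 0.14, limma adjusted p = 0.014). That call was lost with equal column totals (−0.31, limma adjusted p = 0.15), on the scale without the miR-10 pair (−0.32, adjusted p = 0.105), with a prior without trend (adjusted p = 0.073) and without replicate 2 of B8 day 0 (−0.45).

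Mesenchyme markers and 1 blood marker also differed between the ESCs. All 4 mesenchyme markers were lower in D3 day 0 than in B8 day 0, on the median scale and as deposited. So was the blood marker miR-142a-3p. The endothelial marker miR-126a-3p overlapped (33.6 in D3 day 0, 26.1 in B8 day 0, limma adjusted p = 0.31). On the median scale 1 of 3 neural markers was higher, and 0 of 3 endoderm and 0 of 3 muscle markers were called (23.4% of all tested miRNAs). As deposited, 1 neural and 2 endoderm markers were lower (47.0% of all called). miR-143-3p averaged 235 in D3 day 0 and 1631 in B8 day 0, miR-199a-3p 11.4 and 341, miR-145a-5p 1.32 and 14.1, and miR-142a-3p 2.71 and 34.1, while miR-214-3p was listed at 0 in D3 day 0 and averaged 23.2 in B8 day 0. Their part in the lower miR-93-5p and miR-25-3p of D3 was not tested.

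miR-106b-5p and miR-106b-3p were likewise lower in every D3 ESC library (−0.69 and −0.44) without passing (limma adjusted p = 0.068 and 0.12). Without replicate 2 of B8 day 7 both were called (−0.72 and −0.48), as was miR-106b-5p without replicate 3 (−0.69) and miR-106b-3p without replicate 1 (−0.45).

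At day 7, miR-25-3p, miR-93-5p and miR-25-5p were lower in D3 than in B8 on the median scale, and their differences were positive as deposited. These 3 of 6 stand against 40.7% of all tested miRNAs, 24.4% higher and 16.3% lower, and libraries did not overlap for 4 of 6 members, against 59.5%. miR-25-3p had 2490 and 2703 in D3 day 7 and 3325, 3503 and 3736 in B8 day 7 (−0.44 ± 0.16, SE; limma adjusted p = 0.034). miR-93-5p had 1418 and 1437 in D3 day 7 and 1690, 2636 and 1749 in B8 day 7 (−0.47 ± 0.18, adjusted p = 0.046). miR-25-5p had 4.99 and 6.11 in D3 day 7 and 16.6, 8.66 and 19.9 in B8 day 7 (−1.31 ± 0.45, adjusted p = 0.029). The libraries of the lines did not overlap for any of these 3. As deposited the differences were 1.03, 0.9995 and 0.10, beside a median of 1.71 over all tested miRNAs, and leaving out either D3 day 7 library ended all 3 calls (miR-25-3p at −0.51 to −0.41). miR-93-5p was also lost without replicate 2 of B8 day 7 (−0.26), each of B8 day 0 or replicate 2 or 3 of D3 day 0 (−0.50 to −0.26 over the 8 fits), and miR-25-5p without replicate 1 (−1.196) or 3 (−1.09) of B8 day 7. All 3 calls also ended without the filter on low values and when the compared groups were fitted alone, and those of miR-25-3p and miR-93-5p ended with a prior without trend. The call of miR-93-5p was lost on the scale without the miR-10 pair as well (−0.47, limma adjusted p = 0.070).

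miR-106b-5p stood the other way at day 7, with 145 and 122 in D3 day 7 and 106.4, 104 and 46.4 in B8 day 7. Both D3 libraries were higher, by 0.73 ± 0.29 on the log2 scale (SE; limma adjusted p = 0.056), which did not pass. It was called without replicate 1 (0.94) or 2 (0.92) of B8 day 7, and with equal column totals the difference was 0.04.

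The change of miR-106b-5p with differentiation differed between the lines. From day 0 to day 7 its change was 1.42 ± 0.39 higher on the log2 scale in D3 than in B8 (SE; limma adjusted p = 0.0091 for the interaction), the one call among the 6 members, against 32.6% of all tested miRNAs, 20.2% higher and 12.5% lower. Its sign was the same on the 4 scales, but with equal column totals it was 0.55 and did not pass. All tested miRNAs had a median interaction of 0.51 on the median scale, so part of the 1.42 was shared with them. As deposited their median was 2.64, and miR-106b-5p was at 3.93. The call was lost without replicate 2 of D3 day 7 (1.24), and without replicate 3 of B8 day 7, the low one, the difference was 1.01. For miR-93-5p the interaction was 0.57 ± 0.24 (SE; limma adjusted p = 0.087), and without replicate 2 of B8 day 7 it was called at 0.82. With equal column totals it was −0.31.

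Ratios of members within a library do not depend on how libraries are scaled. They were taken with 0.5 of a read added to both sides, and that of the miR-25 arms differed between days in both lines. miR-25-3p exceeded miR-25-5p 457-fold in D3 day 7 (range 432 to 483, n = 2) against 92.4-fold in D3 day 0 (63.8 to 167, n = 3), and 239-fold in B8 day 7 (180 to 389) against 93.5-fold in B8 day 0 (77.3 to 119, n = 3 each; geometric means). Every day 7 library lay above every day 0 library of its line. The mean log2 difference was 1.83 (exact permutation test within lines, 2-sided, p = 0.005, the smallest that 200 arrangements can give; adjusted p = 0.04 over 16 tests). Of 149 arm pairs in the table, 9.4% had their more abundant arm raised in this way in both lines without overlap and 4.7% had it lowered. In D3 day 21 the ratio was 538 (482 to 656), all above D3 day 0, where 3 against 3 libraries cannot give an exact p below 0.1.

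The other arm pairs overlapped between days in at least 1 line. miR-106b-5p over miR-106b-3p overlapped between days in both lines (log2 difference −0.28, exact permutation adjusted p = 0.56). This ratio had geometric means of 0.99 in D3 day 0, 1.25 in D3 day 7 and 1.15 in D3 day 21. In B8 they were 0.63 at day 7 and 1.17 at day 0, so neither arm dominated. miR-93-3p had 0 to 7 reads in every library, so the ratio of the miR-93 arms is known only coarsely (1.37, adjusted p = 0.15). Leaving out 1 library kept the miR-25 arm difference between 1.66 and 2.04, and in 10 of 11 cases the adjusted p was 0.05 or more (up to 0.0889), since fewer arrangements remain.

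**Figure D3:**
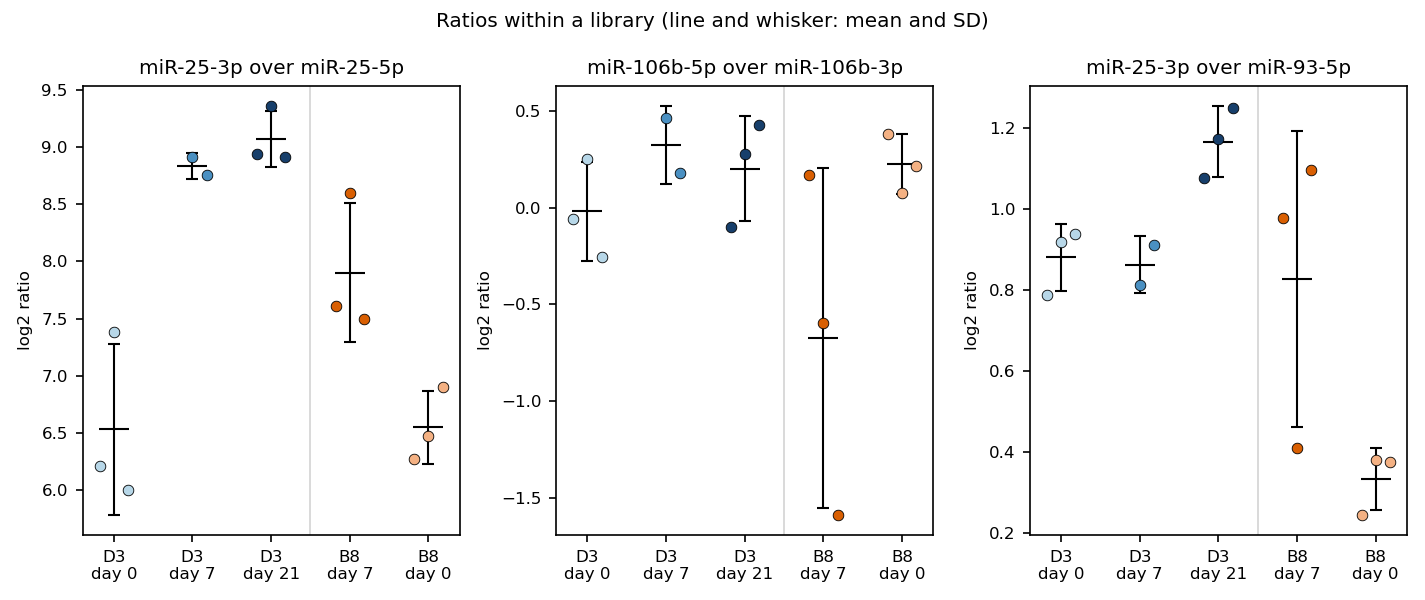
Log2 ratios of members within each library, by group; points are libraries and the line and whisker mark the mean and SD. For miR-25-3p over miR-25-5p the D3 day 7, D3 day 21 and B8 day 7 libraries lie above the day 0 libraries of their line, while miR-106b-5p over miR-106b-3p overlaps between days. miR-25-3p over miR-93-5p overlaps between D3 day 7 and D3 day 0. It lies higher without overlap in B8 day 7 (1.77) than in B8 day 0 (1.26), and in D3 day 21 (2.24) than in D3 day 0 (1.84, itself above B8 day 0; geometric means). Its day 7 difference over both lines did not pass (exact permutation adjusted p = 0.34).

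Among the 6 miRNAs with the miR-17 seed, miR-106b-5p and miR-93-5p together took a larger share at day 7 in both lines. Their share was 60.2% ± 0.290 in D3 day 7 (SD, n = 2) against 44.3% ± 2.10 in D3 day 0 (n = 3), and 68.9% ± 3.70 in B8 day 7 against 52.4% ± 2.05 in B8 day 0 (n = 3 each). No day 7 library overlapped with a day 0 library of its line. The mean difference was 16.2 percentage points (exact permutation test, 2-sided, p = 0.005; adjusted p = 0.04). It lay between 15.5 and 17.2 points when each library was left out, again with an adjusted p of 0.05 or more in 10 of 11 cases. In D3 day 21 the share was 62.7% ± 1.64 (n = 3), all above D3 day 0. In B8 the larger share was that of miR-93-5p (66.1% at day 7, 49.4% at day 0). There miR-106b-5p overlapped (1.86% to 4.16% at day 7, 2.68% to 3.25% at day 0). In D3 both were larger at day 7, miR-93-5p at 55.1% against 41.1% and miR-106b-5p at 5.15% against 3.18%. The summed signal of all 6 averaged 3096 in B8 day 7 and 4403 in B8 day 0. In D3 it averaged 2591 at day 7 and 2570 at day 0, and libraries overlapped in both lines.

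The remainder of that seed shifted within the paralogous clusters. miR-20b-5p, from the X-linked miR-106a-363 cluster, had 3.39% ± 0.0860 of the family in D3 day 7 against 16.6% ± 1.69 in D3 day 0, and 4.13% ± 0.959 in B8 day 7 against 16.1% ± 0.511 in B8 day 0. miR-106a-5p, from the same cluster, had 2.61% in D3 day 7 against 12.1% in D3 day 0, and 3.601% in B8 day 7 against 10.9% in B8 day 0. Both lay lower at day 7 without overlap. miR-17-5p, from the miR-17-92 cluster, had 17.1% in D3 day 7 against 13.4% in D3 day 0, and 12.8% in B8 day 7 against 10.3% in B8 day 0. On the median scale miR-20b-5p had log2 differences at day 7 of −2.27 in D3 and −2.54 in B8 (limma adjusted p = 4.43e-06 and 5.67e-07). As deposited the D3 difference was 0.027 and did not pass (limma adjusted p = 0.95), and that of B8 was −2.76 (2.06e-08).

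Within the miR-25 seed, the share of miR-25-3p overlapped between days while those of miR-92a-3p and miR-92b-3p did not. Its share was 25.9% ± 2.56 in D3 day 7 against 27.4% ± 4.32 in D3 day 0, and 37.8% ± 9.25 in B8 day 7 against 37.3% ± 2.04 in B8 day 0. The groups overlapped in both lines, and the mean difference was −0.50 points (exact permutation adjusted p = 0.88), between −2.92 and 1.69 when each library was left out. miR-92a-3p had 8.73% ± 1.28 in D3 day 7 against 35.8% ± 1.25 in D3 day 0, and 13.1% ± 1.02 in B8 day 7 against 41.6% ± 0.860 in B8 day 0. miR-92b-3p had 64.0% ± 3.83 in D3 day 7 against 33.0% ± 3.50 in D3 day 0, and 48.2% ± 10.5 in B8 day 7 against 15.7% ± 1.55 in B8 day 0. The libraries of the days did not overlap for either, and the directions were opposite.

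Between the lines, D3 had the smaller share of both seeds from this cluster at each day, without overlap of libraries. The difference was −8.42 points for the miR-17 seed and −10.9 points for the miR-25 seed (exact permutation adjusted p = 0.053 and 0.060), neither of which passed. miR-93-5p over miR-106b-5p was also lower in every D3 library of the same day (12.8 in D3 day 0 and 10.7 in D3 day 7, against 16.5 in B8 day 0 and 24.6 in B8 day 7), with a log2 difference of −0.78 (adjusted p = 0.064). Without replicate 3 of B8 day 7 the 3 differences were −7.70 points, −13.1 points and −0.63, and each passed.

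**Figure D4:**
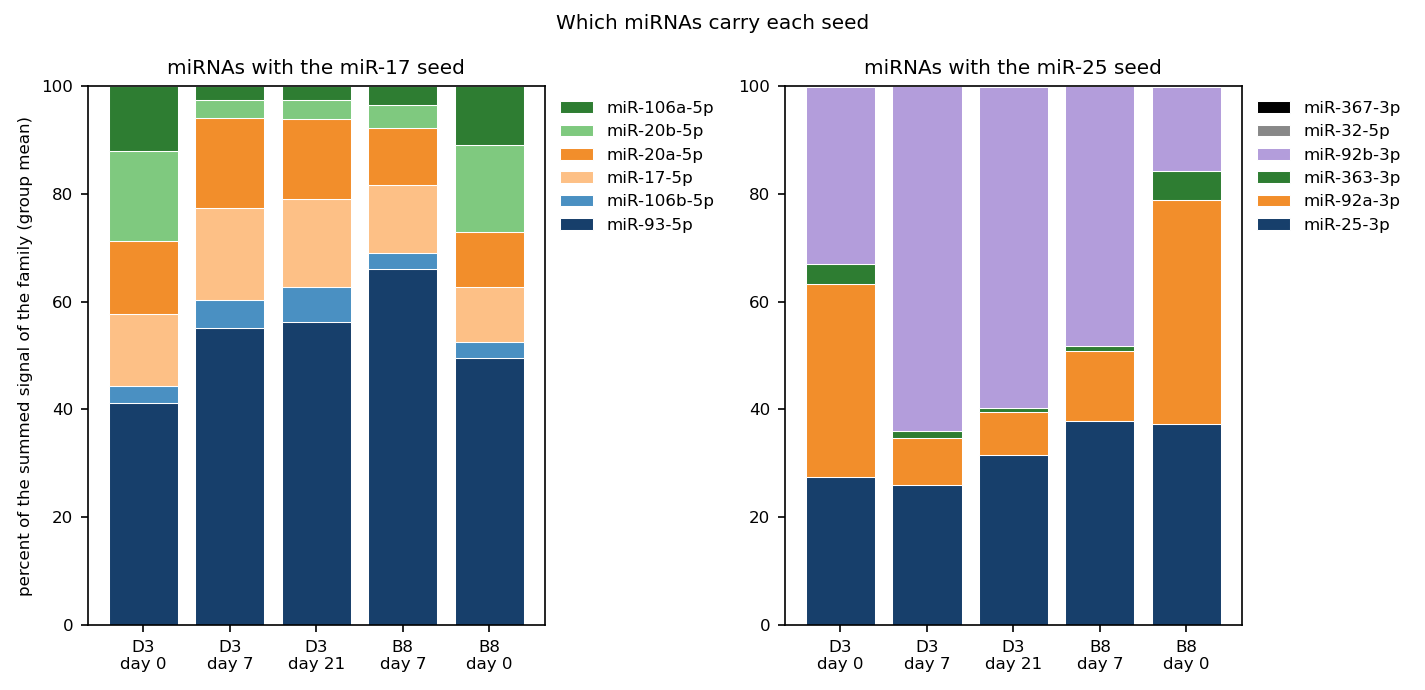
Mean percent of the summed signal of miRNAs with the miR-17 seed (left) and with the miR-25 seed (right) by group, with 1 colour per miRNA. The dark blue and blue bars of miR-93-5p and miR-106b-5p reach 60.2% in D3 day 7 and 68.9% in B8 day 7, against 44.3% and 52.4% at day 0, while miR-25-3p lies between 25.9% and 37.8%, and the bar of miR-92b-3p is larger and that of miR-92a-3p smaller at days 7 and 21 than at day 0.

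The paralogous clusters had more members lower than higher at day 7 on the median scale. As deposited this turned in D3, with 8 of 11 and 1 of 8 higher and 0 lower. On that scale 77.4% of all tested miRNAs were called in D3, with a median log2 difference of 2.25. The 8 of 11 are near this background and the 1 of 8 lies below it, so the turn is not read as a result about these clusters. Of 11 tested miRNAs of the miR-17-92 cluster, 0 were higher and 3 were lower in D3 (median log2 difference −0.65, against 0.27 for all tested miRNAs), and 0 were higher and 8 were lower in B8 (−1.31, against −0.06). Of all tested miRNAs 26.9% were lower in D3 and 25.7% in B8, so the 3 of 11 in D3 are near the background. Of 8 tested miRNAs of the miR-106a-363 cluster, 0 were higher and 6 were lower in D3 (−1.87), and 0 were higher and 7 were lower in B8 (−2.42). The median over the 6 members of the miR-106b-25 cluster was 0.39 in D3 and −0.42 in B8. As deposited, the D3 medians were 1.58 for the miR-17-92 cluster, 0.16 for the miR-106a-363 cluster and 2.68 for the miR-106b-25 cluster, in the same order. At day 21 against day 0 in D3, the medians were −1.04, −2.78 and −0.28 in that order of clusters, against 0.43 for all tested miRNAs. As deposited they were 0.44, −1.46 and 1.28, against 1.69, so the direction turned for the miR-17-92 and miR-106b-25 clusters.

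Across the 14 libraries the levels of miR-106b-5p followed those of the other well-read members less closely than these followed one another. miR-25-3p, miR-93-5p and miR-106b-3p had Pearson correlations of 0.87 with one another on log2 median-scaled levels, whereas miR-106b-5p had 0.07 with miR-106b-3p, its partner arm, 0.11 with miR-25-3p and 0.37 with miR-93-5p. Libraries of a group share their depth and scaling, so these are descriptions. Replicate 3 of B8 day 7 had the lowest miR-106b-5p of all libraries (46.4, on 28 reads) and the highest miR-25-3p (3736). Correlations without this library were not computed, so the low values of miR-106b-5p can rest on it. Among 255 abundant miRNAs outside the cluster, the profile of the 6 members was most like miR-6539 (r = 0.83), miR-672-5p (0.83), miR-290a-3p (0.82), miR-92a-3p (0.82) and miR-7a-1-3p (0.82). That profile weighs each member alike, including the low-read miR-25-5p and miR-93-3p (medians of 0.333% and 0.0419% of the cluster's signal). A second profile used the 4 members that had at least 25 reads in every library, a choice made after seeing the data. It was most like miR-17-5p (0.83), miR-20a-5p (0.70), miR-130b-3p (0.64), miR-7a-1-3p (0.64) and miR-155-5p (0.63), with 1 miRNA in common.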

How the data were processed

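Small RNA sequencing values of mature miRNAs were taken from the series table of 14 libraries, and the 3 samples labelled B8 day 21 were not analysed here. Per the submitters' processing notes the authors used CASAVA, FastQC, Bowtie, Partek and the mm10 build and trimming by cutadapt with selection by length appears in the columns' headings. Versions, settings and the counting of multiply mapped reads are not given in the sources used here. The deposited signal values are reads divided by 1 factor per library, with TMM named in the table's title. Values worth at most 1000 reads proved to be whole reads, to within 0.01 of a read, in 100% of cases for each library, and reads were recovered from them. The 1 further column, a row total, was not used.

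A mean of 5 or more per 1000000 was required, which 521 miRNAs met, and their median-scaled values were tested as log2(value + 0.364), 2 per 1000000, with limma 3.58.1 (R 4.3.3) in 1 fit of 5 group means (trended prior, 9 residual degrees of freedom), with Benjamini-Hochberg adjustment over all 521 and a threshold of 0.05. Fold changes are on this scale and understate changes of low miRNAs. edgeR 4.0.16 on recovered reads called 265, 327, 339, 214, 119, 216 and 159 miRNAs in the 7 comparisons (B8 day 7 against day 0; D3 day 7 against day 0, day 21 against day 0 and day 21 against day 7; then D3 over B8, first at day 0 and next at day 7, and last the interaction), where limma called 274, 328, 328, 138, 122, 212 and 170. Ratios and seed shares were compared by exact permutation within lines or days, adjusted over 16 tests, in Python 3.11.15. The value of 3 reads averaged 4.17, 0.957 and 0.723 on the median scale in D3 day 0, 7 and 21, 3.21 in B8 day 7 and 2.05 in B8 day 0. It covers counting error only. Replicates of a group differed by more than sampling noise (chi-square per degree of freedom 2.90 to 38.4). The procedures were tested on simulated data. The members were chosen by name and the lists by cluster, seed or cell type, with earlier results of these data known, and the miRNAs most like the cluster are the 5 with the highest correlation among those above the median level.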

Additional observations from a re-analysis of the deposited data

Results flagged for a closer look

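The change of mmu-miR-106b-5p from day 0 to day 7 differed between the lines by a test of the difference itself, the interaction term. It was 1.42 ± 0.39 higher on the log2 scale in D3 than in B8 (SE, limma adjusted p = 0.0091). Of the 6 members 1 was called, against 32.6% of all tested miRNAs, whose median interaction was 0.51. With equal column totals the interaction of miR-106b-5p was 0.55 and did not pass (limma adjusted p = 0.43). In D3 both day 7 libraries lay above the 3 day 0 libraries, and in B8 all 3 day 7 libraries lay below the 3 day 0 libraries. Without replicate 3 of B8 day 7, which had 28 reads of miR-106b-5p, the difference was 1.01, and without replicate 2 of D3 day 7 it was 1.24 and did not pass.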

How the results depend on the processing

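Of 385 member differences under other settings, 285 kept their direction and side of the threshold, 43 lost the call, 26 gained one and 31 turned direction. Of 490 obtained by leaving out 1 library, 407 kept both, 68 lost the call, 9 gained one and 6 turned. The cause of these shifts was not tested, except that other scalings move all miRNAs of a library together.

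Against 3, 4, 2, 2, 2, 3 and 1 members called (B8 day 7 against day 0; D3 day 7 against day 0, day 21 against day 0, day 21 against day 7; then D3 over B8, first at day 0 and next at day 7, and last the interaction), the deposited values gave 5 at D3 day 21 against day 0, 5 at day 21 against day 7, 5 between lines at day 0 and 6 in the interaction. Equal column totals gave 1 at D3 day 21 against day 7, 1 between lines at day 0 and 2 in the interaction. Setting aside miR-10a and miR-10b gave 1 in B8 and 1 between lines at day 0. Without a filter the counts were 0 in B8, 2 in D3 at day 7, 1 at day 21 against day 0 and 0 between lines at day 7, where more miRNAs enter the limma adjustment. A prior without trend gave 0 in B8 and 1 in each of the next 5 comparisons. Fitting the compared groups alone gave 1 in B8, 4 at D3 day 21 against day 7, 4 between lines at day 0 and 0 between lines at day 7. edgeR gave 1 in each of the 3 D3 comparisons of days. Leaving out 1 library gave 0 to 3, 1 to 4, 1 to 2, 1 to 3, 1 to 4, 0 to 3 and 0 to 2 in the order above. Calls over all tested miRNAs are given for the median scale, the deposited values and edgeR only. Counts under the other settings therefore have no background beside them and are not read as results about the members.

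Directions turned as deposited for miR-106b-3p in B8 (−0.043), miR-25-5p in D3 at day 7 (0.40), miR-25-3p, miR-93-5p and miR-106b-3p at D3 day 21 against day 0 (1.43, 1.14 and 1.47), miR-25-3p, miR-93-5p, miR-106b-3p and miR-25-5p between lines at day 7 (1.03, 0.9995, 1.203 and 0.10) and miR-25-5p in the interaction (1.61). With equal column totals they turned for miR-25-3p and miR-106b-3p in B8 (−0.18 and −0.35), miR-25-3p, miR-93-5p, miR-106b-5p and miR-106b-3p in D3 at day 7 (−0.996, −0.98, −0.70 and −1.045), miR-106b-5p at D3 day 21 against day 0 (−0.22), miR-25-3p, miR-93-5p, miR-106b-5p, miR-106b-3p and miR-25-5p at day 21 against day 7 (0.50, 0.20, 0.48, 0.60 and 0.22), and miR-25-3p, miR-93-5p and miR-106b-3p in the interaction (−0.82, −0.31 and −0.69). Setting aside miR-10a and miR-10b turned miR-93-5p in B8 (0.15), miR-106b-5p at D3 day 21 against day 0 (−0.022) and miR-25-3p in the interaction (−0.12). edgeR turned miR-25-3p and miR-106b-3p in the interaction (−0.12 and −0.018), and leaving out 1 library took these to between −0.034 and 0.12 and between −0.029 and 0.37.

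Leaving out 1 library took the log2 ratio of the miR-25 arms at day 7 against day 0 to between 1.66 and 2.04, that of the miR-93 arms to between 0.97 and 1.79, the miR-17 seed share to between 15.5 and 17.2 points and the miR-25 seed share to between −2.92 and 1.69 points. Between lines it took miR-93-5p over miR-106b-5p to between −0.94 and −0.63, the miR-17 seed share to between −9.46 and −7.70 points and the miR-25 seed share to between −13.1 and −8.45 points. Adding 2 reads to both sides left miR-93-5p over miR-106b-5p between lines at −0.78, which then passed.

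No pairing of libraries by replicate number was seen: same-numbered libraries of different groups had correlations of −0.12 to 0.13 over 26 pairs, and 4 of 14 libraries correlated best with their own number. These correlations are of deviations from the means of groups of 2 or 3 libraries, where deviations constrain one another, so weak pairing could hardly show. A fit with the number as replicate block called 2 members in D3 at day 7 against day 0, without miR-25-3p (0.35) and miR-93-5p (0.39), called miR-106b-5p between lines at day 7 (0.75), turned miR-25-3p in the interaction (−0.0077) and changed no other call.

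Depth limits miR-93-3p, with 0 to 7 reads a library, and miR-25-5p, with 11 to 64.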
